A study of Mus musculus with 3 samples.

Results

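The genes described here are the 35 listed genes of glycolysis and of the response to low oxygen, as they appear in primary fibroblasts of mouse embryos (MEFs), the matrix-producing cells that grow out when an embryo, here at stage E12.5, is put into culture. They were taken from a fixed list of names, and a probe was assigned to a gene where its transcript is a RefSeq transcript of that gene. The list holds 17 genes of the glycolytic route itself, 3 regulators of glycolytic flux and 15 other hypoxia genes. Probes were matched to 33 of the 35, with 49 probes in all, of which 46 passed the filters, and all 33 genes were among the 18488 genes and transcripts tested. Gapdh, the glyceraldehyde phosphate dehydrogenase, and Ndrg1, a hypoxia-inducible stress gene, had no matched probe and are not analysed here.

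Glycolysis turns glucose into pyruvate in the cytosol and yields ATP without oxygen. When oxygen is low, the prolyl hydroxylases of the Egln family no longer mark the transcription factor subunit HIF-1 alpha for destruction, and HIF-1 then raises many genes, among them glucose transporters, most glycolytic enzymes, lactate dehydrogenase, Pdk1, Vegfa and the collagen-modifying hydroxylases. In cultured fibroblasts these genes also respond to glucose, growth factors, serum and cell density.

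Each of 3 Agilent arrays with 2 colours held RNA of 1 culture whose label says wild type, in Cy5, and RNA of 1 culture whose label says SA1-null, in Cy3. SA1, encoded by Stag1, is a subunit of cohesin, the ring complex that holds sister chromatids together and helps fold chromosomes. Both kinds of culture were untreated, came from embryos of the same stage, were grown in DMEM with 10% serum and gave 1 µg of RNA for labelling; the arrays are labelled as biological replicates and numbered 1 to 3, with no word on the strain, the null allele or how many embryos made up a culture. The dyes were never exchanged, so an effect of the dye and one of the genotype cannot be told apart. All values below are log2 ratios, with the channel labelled SA1-null divided by that labelled wild type, unless another quantity is named.

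The labels need care. Stag1 itself was higher in the channel labelled SA1-null, with 3.34, 3.74 and 3.47 on replicates 1, 2 and 3 (mean 3.52 ± 0.21, SD, adjusted p = 0.0273 in limma), which goes against the label of a null culture. If the labels were exchanged, every sign below would turn, while sizes, spreads and p-values would stay. Replicate 1 was hybridised on 1 slide and replicates 2 and 3 on another. Between 61.3% and 67.7% of spots were well above background, depending on array and channel, and 0 spots were saturated. All genes tested had a median log2 ratio of -0.02, and the standard deviation of the ratios over all genes was 0.84, 0.34 and 0.54 on replicates 1, 2 and 3.

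Cell type markers moved between the channels as well. Of the 21 listed macrophage and blood cell markers 20 were measured, and all 20 were lower in the channel labelled SA1-null on every array, with a median log2 ratio of -2.82. Their summed normalized intensity was 8047 to 54140 in Cy3 and 66692 to 576020 in Cy5, highest in both channels on replicate 1. Of 14 fibroblast markers 12 were measured and 11 of them had a mean above 0, with a median of 0.75, and their sums, 353320 to 977020 in Cy3 against 261020 to 392270 in Cy5, show these markers present in both channels. In Cy5 of replicate 1 the macrophage sum (576020) was above the fibroblast sum (392270). In Cy5 of replicates 2 and 3 it was below (66692 against 303970 and 67902 against 261020), as in Cy3 on every array. Sums over different probes do not give shares of cells. In such bulk RNA, fewer cells of a type and less RNA per cell cannot be told apart. The part of these markers in the values below was not tested.

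None of the 33 measured genes passed the test: 0 of 33 had an adjusted p under 0.05 in limma, against 0.314% of all genes tested (58, of which 56 lower and 2 higher in the channel labelled SA1-null). The lowest adjusted p among them was 0.270, for Aldoa. At an unadjusted p under 0.05 there were 4 of 33, namely Aldoa, Slc2a1 and Slc16a3 with lower values and Hif1a with a higher value. Over all genes 7.49% were past that unadjusted limit, 5.15% lower and 2.33% higher. The same sign on all 3 arrays was seen for 8 of 33 on the lower side, against 19.1% of all genes, and for 2 of 33 on the higher side, against 13.3%. Both directions together made 30.3% of the 33 genes and 32.4% of all genes, so an even sign was about as common among them as among all genes. The 95% interval of the mean lay within 2-fold in both directions for 15 of the 33 genes and reached past 2-fold for the other 18. Ratios simulated with the spread of these 18488 genes showed what 3 arrays can detect at that spread. The test recovered 0% of genes with a 2-fold change, 61.2% at 4-fold and 83.3% at 8-fold. The 33 genes had a larger spread (median SD 0.56 against 0.32 for all genes), so these shares can be too high for them.

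The genes differed mainly between arrays. The median SD over the 3 arrays was 0.56 among the 33 genes and 0.32 among all genes tested. The 33 genes were brighter, as given above, and the part of brightness in this spread or in the shares past 2-fold below was not tested. In 19 of the 33 genes the largest ratio, in either direction, was on replicate 1, in 14 on replicate 3 and in 0 on replicate 2. The ratios of all genes had the same order of spread, with an SD of 0.84, 0.34 and 0.54 on replicates 1, 2 and 3. The matching shares of all genes are not given, so these counts are no trait of the 33 genes. On replicate 1, 9 of the 33 were more than 2-fold lower in the channel labelled SA1-null, a larger share than the 9.61% of all genes, and 2 were more than 2-fold higher, where 4.44% of all genes were. The 9 were Aldoc, Egln3, Hk2, Pfkfb3, Pfkfb4, Pfkp, Pgam1, Gpi1 and Aldoa, and the 2 were P4ha2 and Car9. On replicate 2 no gene of the 33 passed 2-fold in either direction (1.61% of all genes lower and 0.362% higher), and the largest ratio was 0.64 in size, for Aldoa. On replicate 3, 1 gene was more than 2-fold lower, Ankrd37, where 3.46% of all genes were, and 4 were more than 2-fold higher, Eno1, Pkm, Plod2 and P4ha1, where 2.36% of all genes were. Replicate 3 thus differed from replicate 1 in the direction of most of its large ratios, although both had members of the glycolytic route past 2-fold.

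**Figure D1:**
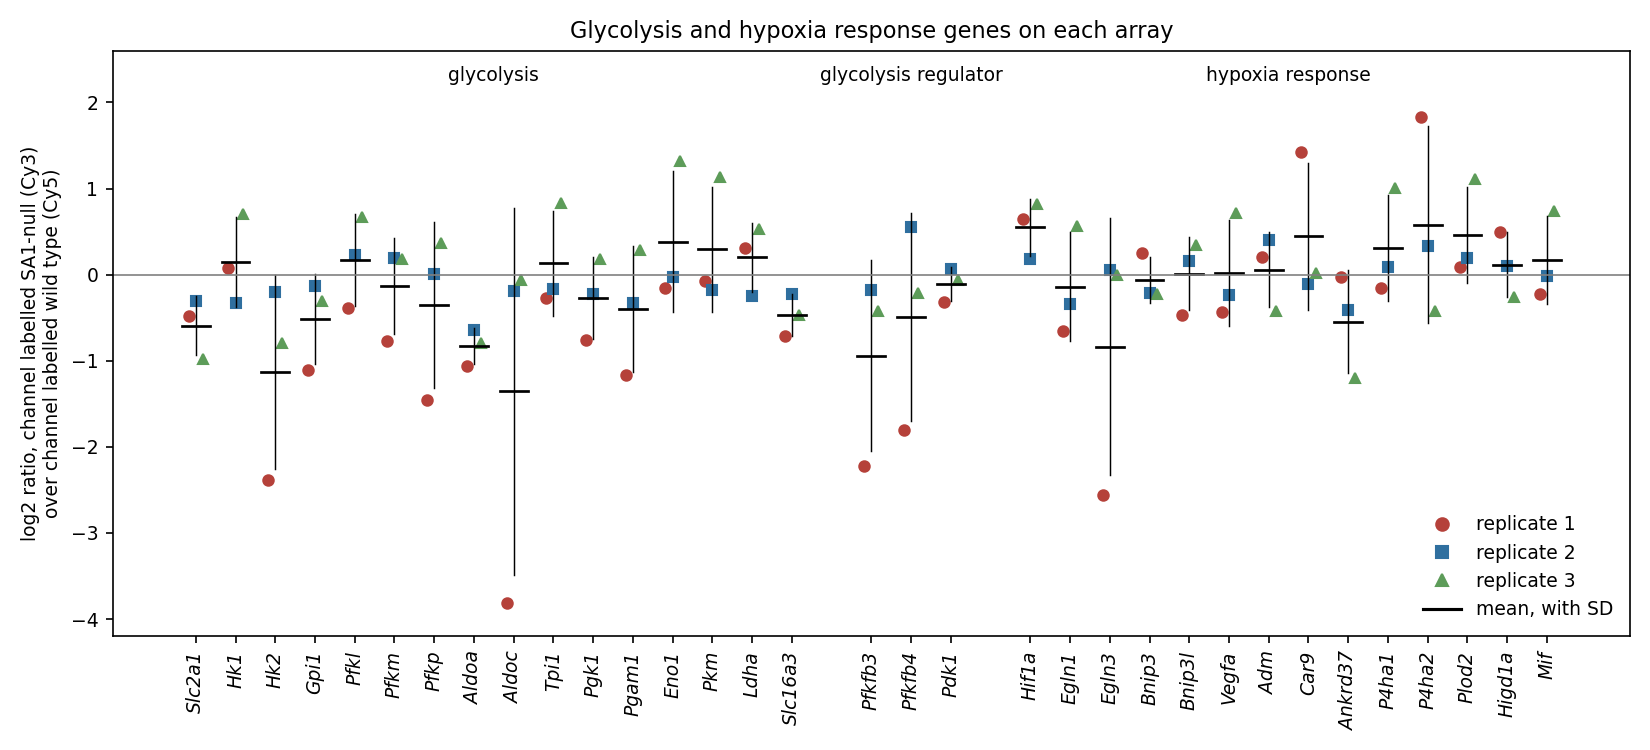
Log2 ratio, SA1-null label over wild type label (vertical axis), for the 33 measured genes in the order of the pathway, with 1 point per array, the mean as a bar and the SD over 3 arrays as a line. The lowest point is Aldoc on replicate 1 at -3.81, and all points of replicate 2 lie within 0.64 of 0.

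The promoters of the genes at both ends of replicate 1 are shown to let a reader see the sequence that hypoxia-inducible factors are known to read. Aldoc, Egln3 and Hk2 had the lowest ratios on that array and P4ha2 and Car9 the highest, and they were chosen after these values were seen. The sequences are the 250 bases upstream of each RefSeq transcript start in assembly GRCm38.p6, written 5′ to 3′ on the strand of the gene. Capitals mark ACGTG or GCGTG, the core of the hypoxia response element, or its reverse complement CACGT or CACGC. Aldoc has 2 starts in the table, at the ends of chr11:78322823-78323072 (plus strand) and chr11:78323948-78324197 (plus strand). The windows of the others are chr12:54203875-54204124 (minus strand) for Egln3, chr6:82774455-82774704 (minus strand) for Hk2, chr11:54100674-54100923 (plus strand) for P4ha2 and chr4:43506776-43507025 (plus strand) for Car9.
Aldoc (first start): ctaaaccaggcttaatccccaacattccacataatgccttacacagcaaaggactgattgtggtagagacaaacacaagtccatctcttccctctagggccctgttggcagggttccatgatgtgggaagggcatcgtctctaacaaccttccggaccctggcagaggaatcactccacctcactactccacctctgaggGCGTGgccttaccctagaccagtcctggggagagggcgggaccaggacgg
Aldoc (second start): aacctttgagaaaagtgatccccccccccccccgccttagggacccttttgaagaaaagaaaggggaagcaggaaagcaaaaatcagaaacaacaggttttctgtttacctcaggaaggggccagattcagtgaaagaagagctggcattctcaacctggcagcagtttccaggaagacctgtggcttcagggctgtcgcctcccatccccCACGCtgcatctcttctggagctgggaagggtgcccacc
Egln3: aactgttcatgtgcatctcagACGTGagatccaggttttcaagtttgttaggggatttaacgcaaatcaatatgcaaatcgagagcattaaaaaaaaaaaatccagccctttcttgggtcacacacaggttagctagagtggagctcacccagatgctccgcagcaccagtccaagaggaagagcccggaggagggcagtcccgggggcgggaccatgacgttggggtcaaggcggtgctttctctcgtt
Hk2: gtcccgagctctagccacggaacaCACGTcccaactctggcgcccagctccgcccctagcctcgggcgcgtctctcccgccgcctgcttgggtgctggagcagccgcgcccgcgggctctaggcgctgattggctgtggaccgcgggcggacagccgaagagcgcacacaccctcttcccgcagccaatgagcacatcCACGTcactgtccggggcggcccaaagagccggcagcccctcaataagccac
P4ha2: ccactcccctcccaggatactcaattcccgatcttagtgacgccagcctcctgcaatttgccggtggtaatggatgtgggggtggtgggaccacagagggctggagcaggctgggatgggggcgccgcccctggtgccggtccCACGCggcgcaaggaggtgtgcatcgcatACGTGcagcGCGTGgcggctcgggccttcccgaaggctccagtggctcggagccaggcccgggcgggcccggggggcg
Car9: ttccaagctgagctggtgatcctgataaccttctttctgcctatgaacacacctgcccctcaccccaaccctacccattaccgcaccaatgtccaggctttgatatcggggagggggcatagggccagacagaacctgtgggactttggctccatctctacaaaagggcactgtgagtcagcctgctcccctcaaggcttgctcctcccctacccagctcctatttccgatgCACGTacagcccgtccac

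All 6 windows hold the core. RefSeq windows were at hand for 32 of the 35 genes, 46 windows in all, and 37 of the 46 (80.4%) held ACGTG or GCGTG on either strand, against 38.6% of the 32851 windows of all genes. Counted by gene, 29 of 32 held it in at least 1 window, against 41.5% of 27025 genes. The listed genes were chosen as genes of glycolysis and hypoxia, many of them known HIF targets, so their higher share is no result of these arrays. Windows of nearby starts of the same gene, as in Eno1, overlap and are counted separately. Overlapping matches, as in CACGTG, mark the same stretch. Genes with opposite ratios on replicate 1 both held the core, and a match is a description of letters, not of a bound site.

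The first steps of glycolysis bring glucose in and trap it. Slc2a1, the glucose transporter GLUT1, had log2 ratios of -0.49, -0.31 and -0.98 on replicates 1, 2 and 3 (mean -0.59 ± 0.35, SD, limma adjusted p = 0.604). Its normalized intensity was 10358, 12094 and 8722 in the channel labelled SA1-null and 14509, 15007 and 17167 in the channel labelled wild type. These intensities are scaled within each array and not between arrays. On each of the 3 arrays the first channel was the lower one, but with levels normalized between arrays the channels overlapped (log2 12.9, 13.7 and 13.3 in Cy3, 13.4, 14.1 and 14.3 in Cy5), and the difference did not pass the adjustment over all genes.

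Hk2, the inducible hexokinase bound to mitochondria, had ratios of -2.39, -0.21 and -0.80 (mean -1.13 ± 1.13, adjusted p = 0.669). Its intensities were 3024, 5161 and 3882 in Cy3 and 15816, 5949 and 6745 in Cy5. Every array was below 0, and the array of replicate 1 stood out through a high Cy5 and a low Cy3 value. Hk1, the constitutive hexokinase, did not go the same way on the arrays, with 0.07, -0.33 and 0.70 (mean 0.15), and its 4 kept probes had means of 0.03 to 0.27. The difference between the hexokinases was not tested. Gpi1, the glucose phosphate isomerase, had -1.11, -0.13 and -0.30 (mean -0.52 ± 0.52).

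Phosphofructokinase commits the sugar to glycolysis and is built from 3 kinds of subunit. The liver-type Pfkl had ratios of -0.39, 0.23 and 0.67, the muscle-type Pfkm -0.78, 0.19 and 0.18, and the platelet-type Pfkp -1.45, 0.01 and 0.37. For all 3 subunits replicate 1 was below 0 and replicates 2 and 3 were above it. The means were 0.17, -0.13 and -0.36. For Pfkp the 2 kept probes had means of -0.36 and -0.29.

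Aldolase splits the sugar, and its 2 measured forms gave unlike patterns. Aldoa, the form of most tissues, had -1.06, -0.64 and -0.79 (mean -0.83 ± 0.21, adjusted p = 0.270). Its intensities were 81678, 113020 and 103670 in Cy3 and 170160, 176570 and 179740 in Cy5. There was no overlap between the channels, also not with levels normalized between arrays (log2 16.2 to 16.8 in Cy3, 17.3 to 17.5 in Cy5), and Aldoa had the smallest p of the 33 genes (0.0041 before adjustment). Its second probe had a mean of -0.49. Aldoc, the form best known from brain, had -3.81, -0.19 and -0.06 (mean -1.35 ± 2.13, adjusted p = 0.714).

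The mean of Aldoc therefore rests on replicate 1. Its intensities were 741, 152 and 153 in Cy3 and 10399, 174 and 159 in Cy5. Among the 18488 genes on replicate 1 Aldoc ranked 79th from the lowest ratio. The offset of 50 added to each signal pulls ratios of such dim spots as those on replicates 2 and 3 towards 0. Without replicate 1 the mean of Aldoc was -0.13, and that of Hk2 was -0.50.

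The next enzymes turn triose phosphates into pyruvate and yield ATP. Tpi1, the triose phosphate isomerase, had -0.27, -0.17 and 0.83, and Pgk1, the phosphoglycerate kinase, had -0.76, -0.23 and 0.19. Pgam1, the phosphoglycerate mutase, had -1.17, -0.33 and 0.29, and Eno1, the enolase, had -0.16, -0.02 and 1.32. Pkm, the pyruvate kinase, had -0.08, -0.17 and 1.13. In these 5 genes replicate 3 was always above 0 and replicates 1 and 2 were always below it. Their means were 0.13, -0.27, -0.40, 0.38 and 0.29, and with median centring all 5 were below 0, at -0.58, -1.01, -1.15, -0.15 and -0.31.

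The high ratio of Eno1 on replicate 3 came with an intensity of 18529 in Cy3, against 5048 and 5784 on the other arrays, while Cy5 held 5630, 5883 and 7409. Pkm showed the same order, with 33911 in Cy3 on replicate 3 against 10894 and 14489, and 11483, 16343 and 15463 in Cy5. For both genes the channel labelled SA1-null of replicate 3 was the highest of the 6 values.

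Lactate production and export close the route. Ldha, the lactate dehydrogenase subunit that favours lactate, had 0.31, -0.24 and 0.53 (mean 0.20), and the sign of its mean depends on the probe: with the brighter probe that carried an outlier flag kept, it was -0.37. Slc16a3, the lactate exporter MCT4, had -0.72, -0.22 and -0.47 (mean -0.47 ± 0.25, adjusted p = 0.656). Its intensities were 4607, 5937 and 5859 in Cy3 and 7566, 6920 and 8090 in Cy5, so that the exporter, like Slc2a1 at the entry, had the lower intensity in Cy3 on every array. With levels normalized between arrays its channels overlapped, at log2 11.7 to 12.8 in Cy3 and 12.4 to 13.2 in Cy5.

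Taking the 16 measured genes of the route by count, 10 had a mean below 0 and 6 above, 6 had the lower sign on all 3 arrays (Slc2a1, Hk2, Gpi1, Aldoa, Aldoc and Slc16a3) and 0 had the higher sign on all 3. Their median was -0.31, beside -0.02 for all genes. By array it was -0.74, -0.20 and 0.24, so the median itself was below 0 on replicates 1 and 2 and above 0 on replicate 3. Without replicate 1 it was 0.06. The centring of the arrays also bears on it: these probes were bright, with a median log2 intensity of 13.2 against 9.27 for all genes, and with each array centred on its median in place of loess the median of the route was -0.83 and that of all genes -0.30. Of the 33 genes 16 had a mean above 0 with loess and 4 with median centring (8 above the median of all genes), and of the genes with a mean above 0 only Hif1a, Car9, P4ha2 and Plod2 stayed above it.

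The 3 regulators of flux had means below 0 and medians of -1.81, 0.07 and -0.21 on replicates 1, 2 and 3, opposite in sign to the median of the route on replicates 2 and 3. Pfkfb3 and Pfkfb4 make and degrade the fructose bisphosphate that activates phosphofructokinase, and both are known hypoxia targets. Pfkfb3 had -2.22, -0.18 and -0.42 (mean -0.94 ± 1.11, adjusted p = 0.703), with intensities of 2129, 2066 and 2021 in Cy3 and 9911, 2346 and 2699 in Cy5. With levels normalized between arrays, replicate 1 differed from the mean of replicates 2 and 3 by -0.70 in Cy3 and by 1.22 in Cy5, so both channels had a part in its low ratio there. The 2 kept probes of Pfkfb3 had means of -0.94 and -0.40.

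Pfkfb4 had -1.81, 0.55 and -0.21 (mean -0.49), so that replicate 2 went against replicates 1 and 3. Pdk1, the kinase that holds pyruvate back from the mitochondrial dehydrogenase, was close to 0 on all arrays, with -0.32, 0.07 and -0.06 (mean -0.10). The 95% interval of Pdk1 ran from -0.52 to 0.31.

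**Figure D2:**
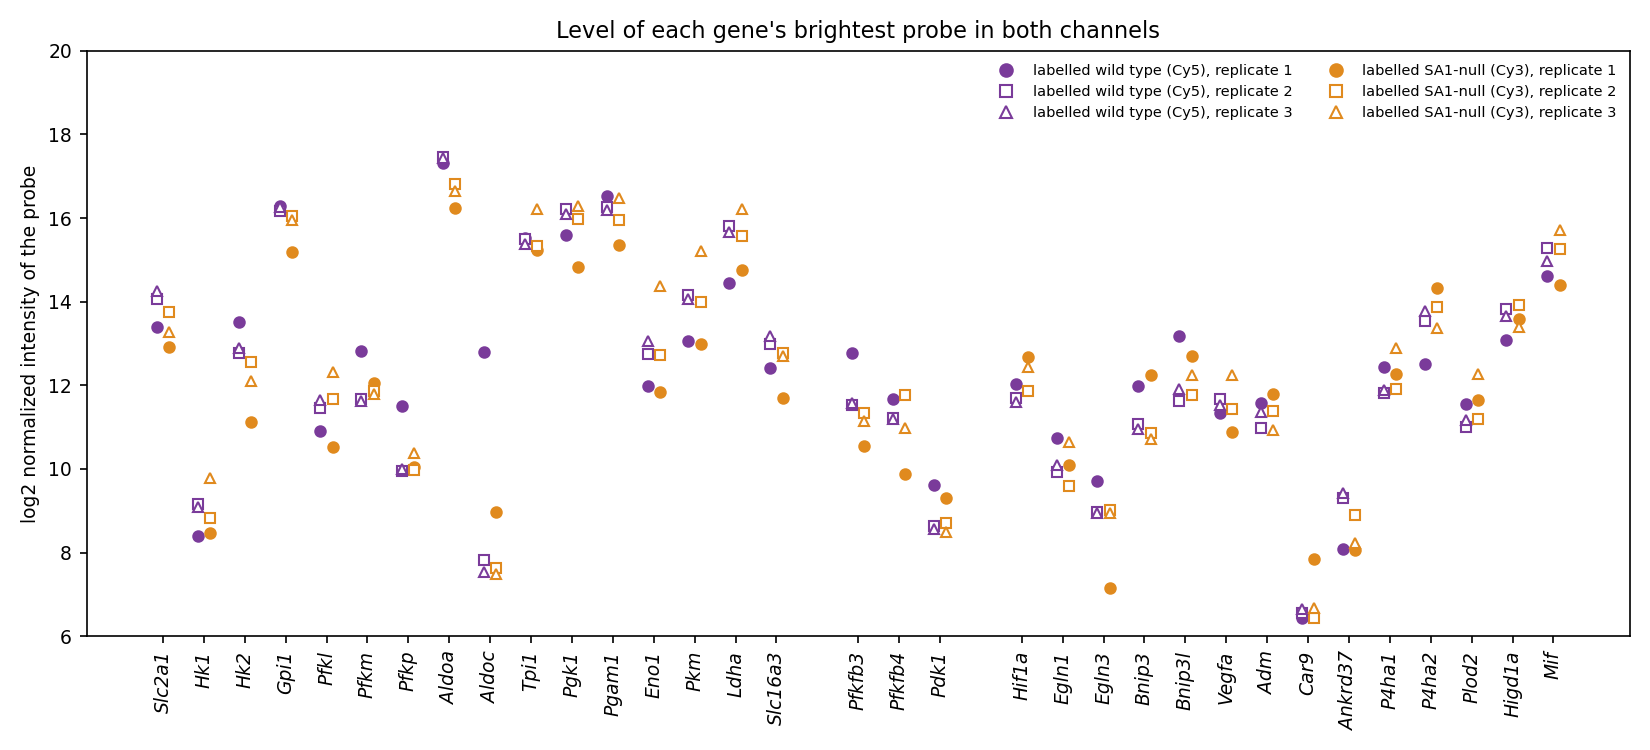
Normalized log2 intensity (vertical axis, after quantile normalization of the mean intensities of the arrays) of the brightest probe of each gene in the channel labelled wild type (Cy5) and in the channel labelled SA1-null (Cy3). Filled points are replicate 1. Aldoc stands at 12.8 in Cy5 of replicate 1 and at 7.82 and 7.54 in Cy5 of replicates 2 and 3, and Egln3 at 7.15 in Cy3 of replicate 1 and at 9.02 and 8.95 on the others.

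Among the hypoxia genes outside the pathway, the factor that responds to oxygen comes first. Hif1a, the subunit that oxygen controls, had 0.64, 0.18 and 0.83 (mean 0.55 ± 0.33, adjusted p = 0.633). Its intensities were 8842, 3028 and 4877 in Cy3 and 5669, 2667 and 2752 in Cy5. It was higher in the channel labelled SA1-null on 3 of 3 arrays, though the ranges of the channels overlap across arrays. With median centring the mean was 0.10. HIF-1 alpha is controlled mainly at the level of the protein, which the arrays do not measure.

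The hydroxylases that mark it were split. Egln1, which acts in most cells, had -0.65, -0.34 and 0.56 (mean -0.14), and its second kept probe had a mean of 0.11, of the opposite sign. Egln3, a hydroxylase that HIF itself raises, had -2.56, 0.05 and -0.01 (mean -0.84 ± 1.49, adjusted p = 0.725). Its intensities were 227, 378 and 422 in Cy3 and 1337, 364 and 424 in Cy5, so the channels of replicates 2 and 3 were alike and only those of replicate 1 differed. Without replicate 1 the mean of Egln3 was 0.02.

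The hypoxia genes outside the pathway and its regulators had means on both sides of 0, from -0.84 for Egln3 to 0.58 for P4ha2. The mitophagy receptors Bnip3 and Bnip3l had means of -0.06 and 0.01, with ranges over the arrays of -0.22 to 0.25 and -0.47 to 0.34. Vegfa, the growth factor for vessels, had -0.43, -0.24 and 0.72 (mean 0.02), and its 3 probes had means of 0.02 to 0.23. Adm, which encodes the vasodilator adrenomedullin, had 0.20, 0.40 and -0.43 (mean 0.06). For these 4 genes the 95% intervals of the mean lay within 2-fold in both directions, the widest being that of Vegfa, from -0.69 to 0.72.

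Car9, the carbonic anhydrase at the cell surface that is among the most hypoxia-dependent genes known, had 1.43, -0.11 and 0.02 (mean 0.44 ± 0.85, adjusted p = 0.748). Its intensities were 325, 79.0 and 91.7 in Cy3 and 121, 85.6 and 90.3 in Cy5. It was high in 1 of the 6 channels, Cy3 of replicate 1, where Egln3 was lowest, so these hypoxia targets had opposite ratios on the same array. Ankrd37, an ankyrin repeat gene and HIF target, had -0.03, -0.41 and -1.20 (mean -0.54 ± 0.60, adjusted p = 0.703). Its array with the largest ratio was replicate 3 and not replicate 1.

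The collagen-modifying hydroxylases had means above 0. P4ha1 and P4ha2, the catalytic subunits of collagen prolyl hydroxylase, had -0.16, 0.08 and 1.01 (mean 0.31) and 1.83, 0.33 and -0.42 (mean 0.58 ± 1.14). They were highest on different arrays, replicate 3 for P4ha1 and replicate 1 for P4ha2. Plod2, the lysyl hydroxylase of collagen telopeptides, had 0.09, 0.19 and 1.11 (mean 0.46 ± 0.56, adjusted p = 0.708) and was above 0 on all 3 arrays. Without replicate 1 the mean of P4ha2 was -0.04. Leaving out replicate 3 gave -0.04 for P4ha1 and 0.14 for Plod2, and median centring gave -0.15 and 0.04.

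Higd1a, a small mitochondrial protein gene, had 0.50, 0.10 and -0.26 (mean 0.11), and its second probe had a mean of -0.23. Mif, the cytokine known as macrophage migration inhibitory factor, had -0.22, -0.01 and 0.74 (mean 0.17). Over the 14 measured hypoxia genes 10 had a mean above 0 and 4 below, and the median was 0.09, with 0.03, 0.07 and 0.18 by array. It was -0.01 without replicate 3 and -0.43 with median centring, where all genes had -0.30. The median of the glycolytic route and that of the hypoxia genes lay on different sides of 0, and the difference between these lists was not tested.

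**Figure D3:**
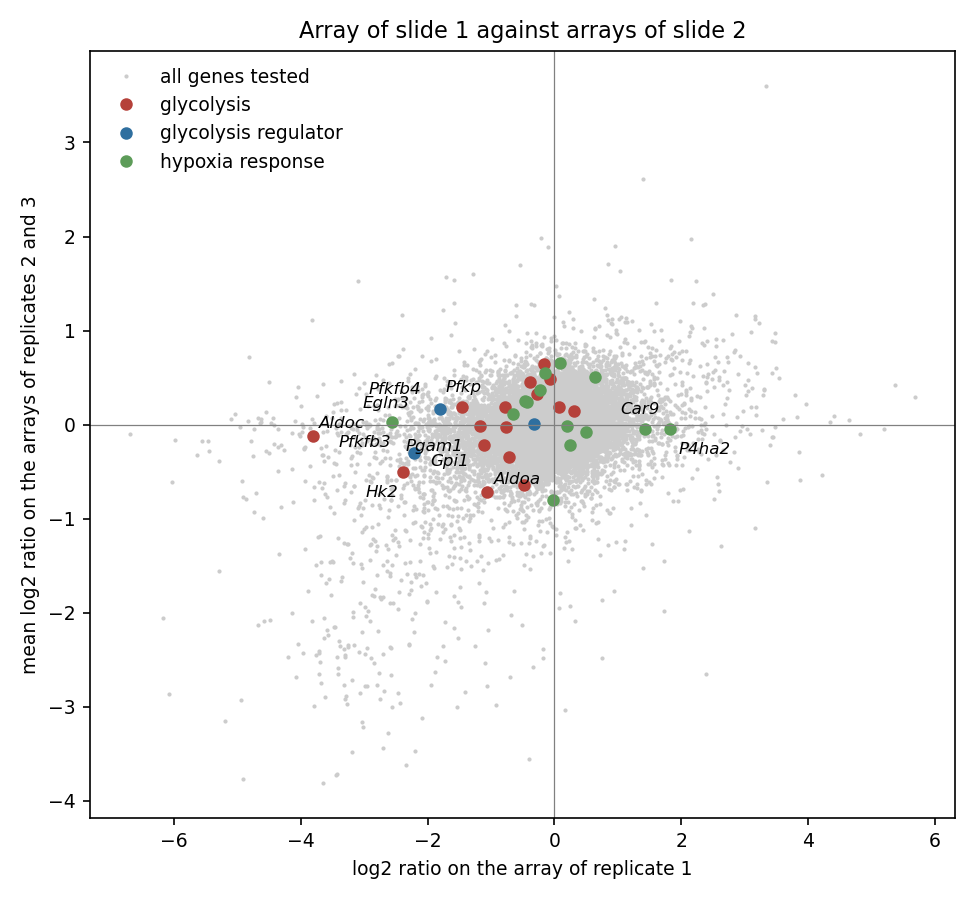
Log2 ratio on the array of replicate 1 (horizontal axis) against the mean log2 ratio on the arrays of replicates 2 and 3 (vertical axis), with all 18488 genes tested in grey. The 11 named genes lie past 2-fold on replicate 1, and of them Aldoa has the lowest mean on the other arrays, at -0.72.

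The arrays of replicate 1 and of replicates 2 and 3 lay on different slides, so their values can be set side by side. For Aldoa the ratio was -1.06 on slide 1 and -0.72 as the mean of slide 2, and for Hif1a it was 0.64 and 0.50. Slc2a1 had -0.49 and -0.64. These 3 genes had the same sign on both slides. The size on slide 2 is a mean of 2 arrays, which were unlike for Hif1a (0.18 and 0.83) and Slc2a1 (-0.31 and -0.98). For Aldoa they were closer (-0.64 and -0.79). The genes set side by side here are examples and not a count over the 33. Aldoc had -3.81 and -0.13, Egln3 -2.56 and 0.02, Pfkp -1.45 and 0.19, and Car9 1.43 and -0.05. With the slide as a fixed term, 7 of the 33 genes passed an adjusted p of 0.05 in limma, namely Hk2, Aldoa, Aldoc, Pfkfb3, Egln3, Car9 and P4ha2, as did 1772 of all genes (1304 lower and 468 higher). That fit takes its spread from the 2 arrays of slide 2 alone, and without replicate 1 the number was 0 of 33, with means of -0.72 for Aldoa, -0.50 for Hk2 and -0.30 for Pfkfb3. Slide, culture and the version of the scanning software of replicate 1 cannot be told apart.

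The levels of single channels, normalized between arrays, show where replicate 1 differed. In Cy5 the log2 level of Aldoc was 5.11 above the mean of replicates 2 and 3, that of Pfkp 1.51, that of Pfkfb3 1.22 and that of Hk2 0.67, where the 5th and 95th percentiles of all genes were -1.51 and 1.87. In Cy3 the level of Egln3 differed by -1.84 from the mean of replicates 2 and 3, that of Pfkfb4 by -1.51 and that of Hk2 by -1.22, where those percentiles were -1.28 and 1.42. The low ratio of Hk2 thus had a part in both channels, and that of Pfkp came nearly all from Cy5, since its Cy3 level differed by -0.13.

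Other genes of glucose use, from lists written for the same pathways, gave 0 calls as well. Of 19 other isoforms of glycolytic proteins 14 passed the filters, with 5 means above 0 and 9 below and a median of -0.15. Hk3, a hexokinase best known from blood cells, had -1.47, -1.26 and -1.35 (mean -1.36 ± 0.11, adjusted p = 0.0664), and the macrophage markers given above were lower on the same arrays. Slc2a3, the glucose transporter GLUT3, had -2.64, -0.65 and -0.47 (mean -1.25 ± 1.21, adjusted p = 0.664). Both were below 0 on all 3 arrays, and Hk3 was the more even.

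Of 36 further known HIF targets 32 passed the filters, with 14 means above 0 and 18 below, a median of -0.05 and 0 calls. Angptl4, a lipase inhibitor induced by hypoxia and fasting, had -0.81, -1.23 and -1.54 (mean -1.19 ± 0.36, adjusted p = 0.196), and Igfbp3, an IGF-binding protein, had -0.46, -0.46 and -0.43 (mean -0.45, adjusted p = 0.588). Of 13 HIF regulators 11 passed the filters, with a median of 0.03 and 0 calls. The smallest p-values there belonged to Eloc, an elongin of the VHL ligase, with a mean of -0.27, and to Hif1an, the asparaginyl hydroxylase of HIF, with 0.20.

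Past pyruvate, the 18 citric acid cycle genes had 10 means above 0 and 8 below, with a median of 0.02 and 0 calls. Idh3a, a subunit of isocitrate dehydrogenase, had -0.55, -0.56 and -0.51 (mean -0.54 ± 0.03, adjusted p = 0.469), and Mdh1, the cytosolic malate dehydrogenase, had -1.19, -0.16 and -1.05 (mean -0.80, adjusted p = 0.588). Idh3a and Igfbp3 were below 0 by nearly the same amount on every array. Of 12 genes of pyruvate dehydrogenase and its regulators 11 passed the filters, with a median of 0.04, and the smallest p-values were those of Pdk3 (mean 0.43) and Pdhx (mean -0.39).

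Of 7 pentose phosphate genes 5 passed the filters, with a median of 0.10 and with means of -0.41 for Taldo1, the transaldolase, and 0.35 for Pgls, the lactonase. Of 11 genes of gluconeogenesis and glycogen 8 passed, with a median of 0.01. Pck2, the mitochondrial phosphoenolpyruvate carboxykinase, had 1.52, 0.76 and 1.37 (mean 1.22 ± 0.40, adjusted p = 0.207). Pygl, the liver-type glycogen phosphorylase, had -3.07, -0.34 and -1.32 (mean -1.58 ± 1.38, adjusted p = 0.633). All these lists had 0 calls at an adjusted p under 0.05 in limma, beside 0.314% of all genes. At an unadjusted p under 0.05 were 21.4% of the measured other isoforms, 4 of the 32 further HIF targets (3 lower and 1 higher), 16.7% of the citric acid cycle genes, 25% of the gluconeogenesis and glycogen genes, 9.09% of the pyruvate dehydrogenase genes and 0% of the HIF regulators and of the pentose phosphate genes, beside 7.49% of all genes.

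**Figure D4:**
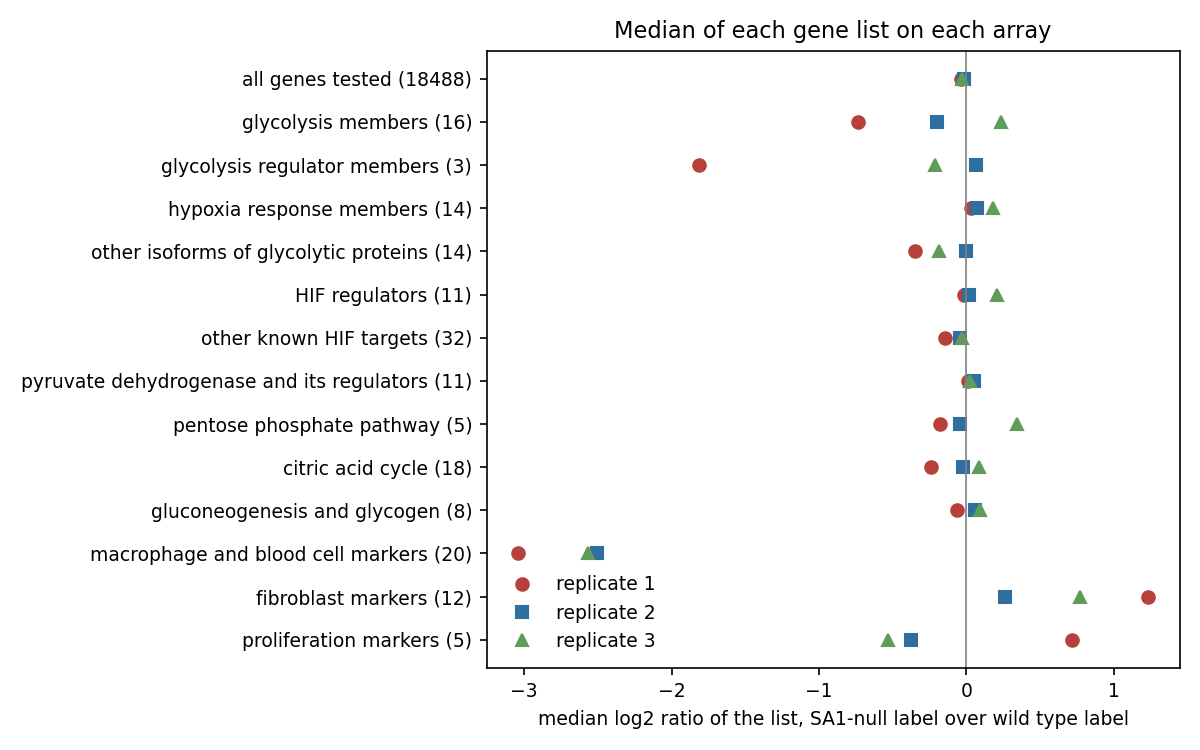
Median log2 ratio (horizontal axis) of each gene list on each array, with the number of genes that passed the filters in brackets. The glycolytic route has medians of -0.74, -0.20 and 0.24, the 20 macrophage and blood cell markers have -3.04, -2.50 and -2.57, and the 3 glycolysis regulators have -1.81, 0.07 and -0.21.

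The proliferation markers gave a further difference between the arrays. Of 6 listed, 5 were measured, with medians of 0.72, -0.38 and -0.53 on replicates 1, 2 and 3, so that replicate 1 was opposite in sign to the others. For the median of the glycolytic route it was replicate 3 that was opposite in sign (-0.74, -0.20 and 0.24). The macrophage markers had ratios of -3.04, -2.50 and -2.57, of similar size on all 3 arrays. Their summed intensity, scaled within each array only, was highest on replicate 1. In Cy5 it was 576020 there, against 66692 and 67902 on replicates 2 and 3, and in Cy3 54140 against 8418 and 8047. Aldoc, Egln3 and Pfkp were far below 0 on replicate 1 alone. The part of either marker list in the ratios of the glycolytic genes was not tested.

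**Figure D5:**
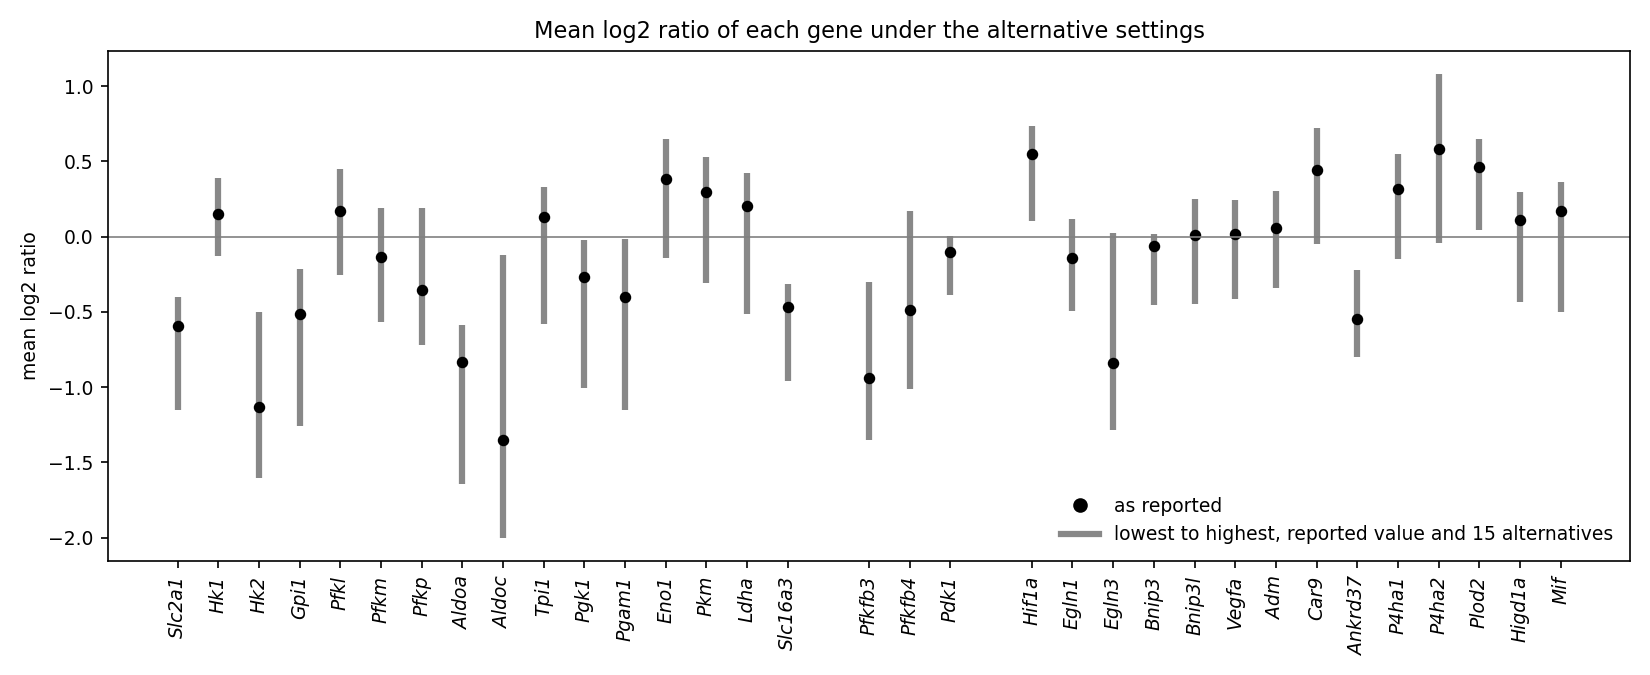
Mean log2 ratio of each gene (vertical axis) as reported (point) and its range over the reported value and 15 alternative settings (bar). Of the 33 genes 12 keep their sign throughout, and Aldoa ranges from -1.65 to -0.59 and Hif1a from 0.10 to 0.73.

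Across the settings tried, 12 of the 33 genes kept the sign of their mean in all 15. On the lower side these were Slc2a1, Hk2, Gpi1, Aldoa, Aldoc, Pgk1, Pgam1, Slc16a3, Pfkfb3 and Ankrd37, and on the higher side Hif1a and Plod2. Of the other 21, 12 turned with median centring, 10 without replicate 1 and 10 without replicate 3, some of them in more than 1 of these settings. All of the 12 that kept their sign, except Pgk1 and Pgam1, had the same sign on all 3 arrays. Such a mean cannot turn when a replicate is left out. That even sign was no more common here (30.3%) than among all genes (32.4%). The trended variance and the filters on background left the means of the 33 genes as they were. The share of all genes that keep their sign in all 15 is not given.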

How the data were processed

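RNA of 3 pairs of mouse embryonic fibroblast cultures was measured on 3 Agilent arrays. The deposited scanner files hold spot and background intensity values of both dyes, and, per the file headers, replicate 1 was read with Feature Extraction version 10.1.1.1 while the others used 10.7.3.1. The deposited log2 table was made by the authors with limma, per the submitters' processing notes; how it was corrected for background and centred is not given in the sources used here. Its direction was Cy5 over Cy3, opposite to that of the ratios computed here. With both taken in the same direction, the correlations over probes were 0.991, 0.985 and 0.997. The column medians were -0.02, -0.02 and -0.01.

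Median spot signals, which the files hold in place of the mean signals named in the design, were background-corrected by normexp (offset 50) and loess-normalized array by array with limma 3.58.1 (R 4.3.3). Controls and outlier-flagged spots (116, 125 and 207 per array) were left out. Of 41174 probes, 24019 were kept: those well above background in the same channel on all 3 arrays. Each gene was represented by its brightest probe on average, giving 18488 genes or transcripts. Probes were named through RefSeq transcripts of GRCm38.p6, without versions, for 23374 probes and 16535 genes.

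Mean log2 ratios were tested against 0 with lmFit and eBayes, with Benjamini-Hochberg adjustment over all 18488 and a threshold of 0.05. A sign-flip test of 3 arrays has a smallest two-sided p of 0.25, so each p rests on the spread limma shares between genes, and 3 arrays limit the precision. Intervals are limma's 95% intervals. The test was checked on simulated ratios with 200 changed genes, where it made 4 false calls. The genes and lists were chosen with earlier results of these data known. Every measured gene of the glycolysis and hypoxia list was reported, and from each other pathway list the 2 genes with the smallest p. Motifs were searched on both strands in the 250 bases upstream of RefSeq starts. The 15 alternatives covered background correction, normalization, the deposited values, filters, probe choice, variance models, array weights, the slide and each replicate left out. Figures were drawn with matplotlib 3.10.9 under Python 3.11.15.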

Additional observations from a re-analysis of the deposited data

How the results depend on the processing

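The number of genes called over all genes was 58. It was 118 with no background subtraction, 265 with an offset of 0, 325 with the processed signals of Feature Extraction, 34 with median centring, 92 with both channels above background, 142 with a trended robust variance, 185 with array weights and 1772 when slide entered as a fixed term. With no filter on dim probes limma called 0 of 33202, with 1982 at an unadjusted p under 0.05. Leaving out a replicate gave 0 to 284: 284 without replicate 1, and 0 without replicate 2 (1294 at an unadjusted p under 0.05) or replicate 3 (736). Of the 33 glycolysis and hypoxia genes, 7 were called when slide entered as a fixed term and 0 under each of the other 14 alternatives, where the lowest adjusted p was 0.107 to 0.826 and 1 to 8 of the 33 had an unadjusted p under 0.05.

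The median of the glycolytic route was -0.83 with median centring and -0.43 to 0.06 when a replicate was left out. The median of the hypoxia genes was -0.43 with median centring and -0.0098 to 0.13 when a replicate was left out, with -0.0098 without replicate 3. Of the values of single genes under the alternatives, 471 stayed within the replicate spread on their side of the threshold, 17 moved further, 14 of them with median centring, and 7 passed the threshold. The cause of these shifts was not tested. The main test already uses the pairing, because each pair of cultures shares an array and the ratio of the array is the unit. No further paired analysis was made, since there is 1 group of ratios. A random effect of slide was not estimable. Signal over background, at 1.86 to 4.02 times, limits dim genes such as Car9 and Aldoc on slide 2.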

Other observations

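Several of these genes differed between the slides in the same direction in both channels, which a ratio within an array does not show. After normalization between arrays, the log2 level of Ldha on replicate 1 differed from the mean of replicates 2 and 3 by -1.12 in Cy3 and by -1.29 in Cy5. Eno1 differed by -1.71 and -0.90, and Pkm by -1.62 and -1.07. Bnip3 went the other way, with 1.45 and 0.98, as did Bnip3l, with 0.69 and 1.41. Vegfa differed by -0.95 and -0.28, and Hif1a by 0.51 and 0.38. Glycolytic genes did not all go one way: Aldoc was higher on slide 1 in both channels, by 1.43 and 5.11, and Pfkm by 0.23 and 1.19. These genes were picked after their values were seen. Most of these values lay between the 5th and 95th percentiles of all genes (-1.28 and 1.42 in Cy3, -1.51 and 1.87 in Cy5). Outside them were only Eno1, Pkm and Bnip3 in Cy3 and Aldoc in both channels. The part of the slide, the culture and the scanning software in these differences cannot be told apart.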
